A study of Mus musculus with 36 samples.

Results

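The 6 mature miRNAs described here come from 3 hairpins that lie within imprinted genes: mmu-miR-335-5p and mmu-miR-335-3p from Mest, mmu-miR-483-5p and mmu-miR-483-3p from Igf2, and mmu-miR-675-5p and mmu-miR-675-3p from H19. They were chosen by name, as both arms of the hairpin of each locus, and make up 6 of the 1915 mature miRNAs in the count table. The libraries were made from total RNA of whole kidneys of C57BL/6 mice on postnatal days 1, 3 and 7, called P1, P3 and P7. In the Pkd1 model, Pkd1f/f animals are called WT and Pkd1f/f:HoxB7-cre animals KO, and in the Pkd2 model Pkd2f/f and Pkd2f/f:HoxB7-cre animals are named in the same way, so that every animal of a model carries the floxed allele and only the KO animals carry Cre. HoxB7-cre deletes the floxed gene in the collecting duct, so the cells that lost Pkd1 or Pkd2 are a part of each whole kidney. There are 36 libraries, 3 for each model, age and genotype, which makes 12 groups. The labels do not say that the 3 libraries came from separate animals, and p-values then measure the spread between these libraries, which may be technical.

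An imprinted gene is expressed from the copy inherited from 1 parent only. Mest and Igf2 are expressed from the paternal copy and H19, a long noncoding RNA, from the maternal copy; Igf2 encodes a fetal growth factor, and many imprinted growth genes are known to be high in fetal and newborn organs and low afterwards. A miRNA hairpin is cut from its host transcript into a duplex of a 5p and a 3p arm, and either arm can be loaded into Argonaute and recognise targets through its seed, bases 2 to 8.

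The mature sequences are shown so that the arms of each hairpin can be told apart, and their seeds are marked because a seed guides which targets an arm recognises. They were taken from RefSeq (GRCm38.p6) and are written 5′ to 3′, with the seed in capitals.
mmu-miR-335-5p: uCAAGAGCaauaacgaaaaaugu
mmu-miR-335-3p: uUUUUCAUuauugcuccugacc
mmu-miR-483-5p: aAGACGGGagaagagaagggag
mmu-miR-483-3p: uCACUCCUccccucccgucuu
mmu-miR-675-5p: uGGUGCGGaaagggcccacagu
mmu-miR-675-3p: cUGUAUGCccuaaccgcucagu
The 6 seeds were all different, and no other mature mouse miRNA in the RefSeq table shared any of them. In base composition the arms of miR-335 stood lowest, with 30.4% G or C in miR-335-5p and 36.4% in miR-335-3p, and miR-675-5p stood highest, with 63.6%.

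In GRCm38 the miR-335 hairpin lies on the forward strand at chr6:30741299-30741396, with miR-335-5p at 30741314 to 30741336 and miR-335-3p at 30741354 to 30741375. It is inside the Mest gene and overlaps no Mest exon, so it is intronic. The miR-483 hairpin lies on the reverse strand at chr7:142654924-142654996, with miR-483-5p at 142654968 to 142654989 and miR-483-3p at 142654932 to 142654952. It is intronic in Igf2 and also lies within the span of the annotated gene Gm49394 on the same strand. The miR-675 hairpin lies on the reverse strand at chr7:142577064-142577147, with miR-675-5p at 142577112 to 142577133 and miR-675-3p at 142577078 to 142577099. It is within an exon of H19.

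A library held between 12569939 and 32663566 reads (median 24008082), of which miR-10a-5p together with its relative miR-10b-5p took between 31.4% and 81.0%. Levels are given below as CPM, counts per 1000000 reads, scaled with TMM factors over all 36 libraries, and 3 reads, the floor used here, corresponded to between 0.0593 and 0.471 CPM depending on the library. The markers fixed for kidney epithelium, 8 miRNAs such as miR-192-5p and miR-200b-3p, were detected in every library. In the library of Pkd1 WT replicate 1 at P1 the summed level of 7 striated muscle markers was 1786 CPM, against 15.7 to 166 CPM in the other 35, and in Pkd2 WT replicate 3 at P1 the summed level of the liver markers miR-122-5p and miR-122-3p was 289 CPM, against at most 46.5 CPM elsewhere. Values without these libraries are given beside the results of their groups.

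The 3 hairpins differed widely in abundance and in which arm was read. The miR-335 hairpin was the most abundant, with both arms at similar totals: 1101541 reads of miR-335-5p over all libraries, 51.5% of the hairpin, and 1039439 of miR-335-3p. From miR-483 the 3p arm was the main product, with 20619 reads against 7043 of miR-483-5p, which was 25.5% of the hairpin. From miR-675 the 3p arm was also the main product, with 3857 reads against 420 of miR-675-5p, 9.82% of the hairpin. A single library held between 5126 and 88566 reads of miR-335-5p and between 26 and 2250 of miR-483-3p. It held between 7 and 364 reads of miR-675-3p, and at most 38 of miR-675-5p. At this depth miR-675-5p was at or under 3 reads in 10 of 36 libraries, and it was at 0 reads in Pkd1 KO replicate 1 at P7, so its levels carry large counting error, whereas those of miR-335 do not. The main fits used all libraries of a model or of both models. In these fits all 6 miRNAs passed the filter of at least 10 counts in at least 3 libraries. With the compared libraries alone miR-675-5p failed it in several comparisons, which are listed further below.

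**Figure D1:**
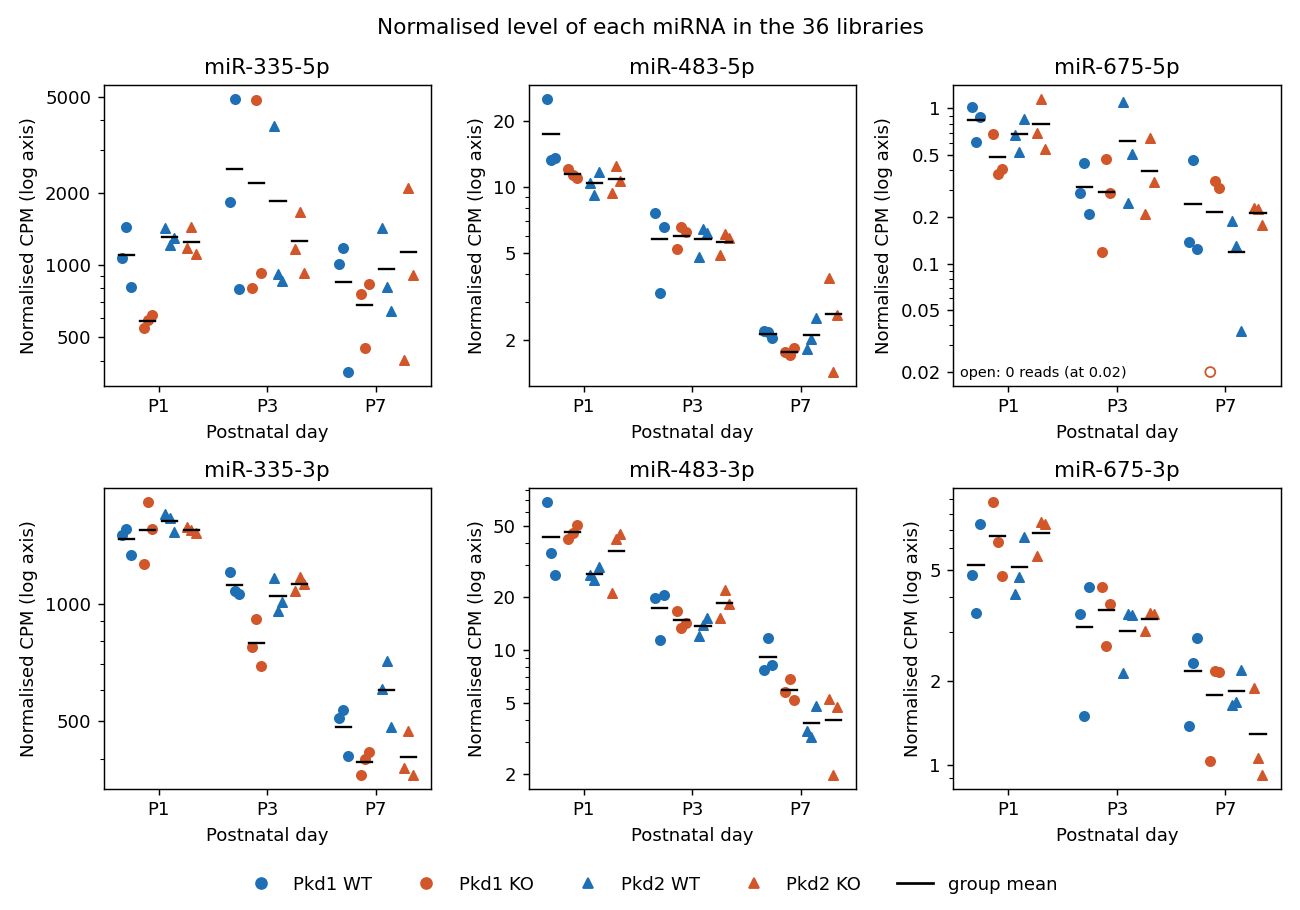
Normalised level of each miRNA (CPM, log axis, a different range in each panel) in the 36 libraries by postnatal day; each point is a library, colour marks genotype, shape marks the model and the bar is the mean of the 3 libraries of a group. For miR-335-3p, both arms of miR-483 and both arms of miR-675 the bars of all 4 combinations of model and genotype are lower at P7 than at P1, while miR-335-5p shows 3 libraries between 3781 and 4918 CPM at P3.

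The first week after birth brought a fall in most of these miRNAs. Of the 6, 5 were lower at P7 than at P1 in all 4 combinations of model and genotype, without any overlap of the P1 and P7 libraries, and miR-335-5p was the exception. With edgeR's quasi-likelihood test and Benjamini-Hochberg adjustment over all miRNAs, 3 members fell in Pkd1 WT, 4 in Pkd1 KO, 5 in Pkd2 WT and 5 in Pkd2 KO, and none rose. Of all miRNAs tested, 11.2% fell in Pkd1 WT, 7.08% in Pkd1 KO, 16.9% in Pkd2 WT and 12.6% in Pkd2 KO. A fall without overlap was seen in 16.4%, 22.8%, 27.7% and 18.2% of all miRNAs in the same order. The median log2 fold change of the 6 members was −1.71, −1.83, −1.96 and −2.03, against −0.03, −0.05, −0.06 and −0.07 over all miRNAs tested. In bulk tissue a fall of this kind can reflect fewer cells of a type or less of the miRNA in each cell, and these cannot be told apart.

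The 3p arm from the Mest intron, miR-335-3p, gave the tightest series. In Pkd1 WT it stood at 1499, 1552 and 1329 CPM at P1, at 1206, 1080 and 1057 CPM at P3, and at 509, 532 and 407 CPM at P7. In Pkd2 WT it stood at 1692, 1659 and 1525 CPM at P1, at 1164, 959 and 1010 CPM at P3, and at 604, 713 and 484 CPM at P7. Within each model, KO included, no P3 library reached the lowest P1 library and no P7 library reached the lowest P3 library. The log2 fold change from P1 to P7 was −1.50 (SE 0.16, edgeR adjusted p = 3.12e-05) in Pkd1 WT and −1.52 (SE 0.15, edgeR adjusted p = 8.77e-06) in Pkd2 WT. It was larger in number in the KO kidneys, at −1.87 (SE 0.16) in Pkd1 and −1.99 (SE 0.15) in Pkd2, the latter a 3.97-fold drop.

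Both arms of miR-483, from the Igf2 intron, fell in all 4 combinations, and the lowest log2 fold change of the 6 members in each combination belonged to miR-483-5p in Pkd1 WT and to miR-483-3p in the other 3. In Pkd1 WT miR-483-3p, the more abundant arm, stood at 68.8, 35.3 and 26.5 CPM at P1 and at 7.69, 11.6 and 8.16 CPM at P7, with P3 between them at 19.6, 11.3 and 20.5 CPM. In Pkd2 KO it stood at 20.9, 42.2 and 45.4 CPM at P1 and at 5.30, 1.96 and 4.77 CPM at P7. Every P7 library of the series, at 1.96 to 11.6 CPM, was below every P1 library, at 20.9 to 68.8 CPM.
The log2 fold change of miR-483-3p from P1 to P7 was −2.16 (SE 0.32) in Pkd1 WT, −2.87 (SE 0.33) in Pkd1 KO, −2.87 (SE 0.34) in Pkd2 WT and −3.21 (SE 0.34) in Pkd2 KO. The last is a 9.27-fold drop, the third lowest log2 fold change of 746 miRNAs in that comparison (edgeR adjusted p = 1.82e-05).
For miR-483-5p all 12 P1 libraries, at 9.19 to 25.3 CPM, were above all 12 P3 libraries, at 3.28 to 7.60 CPM. Its P7 libraries, at 1.43 to 3.84 CPM, overlapped those of P3 only between the models. Its log2 fold change from P1 to P7 ran from −2.94 (SE 0.32, edgeR adjusted p = 3.12e-05) in Pkd1 WT to −2.07 (SE 0.27, edgeR adjusted p = 5.99e-05) in Pkd2 KO.
The highest value of both arms was in Pkd1 WT replicate 1 at P1, at 25.3 CPM of miR-483-5p and 68.8 CPM of miR-483-3p, which is the library with 1786 CPM of muscle markers. Without it the falls in Pkd1 WT were −2.58 for miR-483-5p (edgeR adjusted p = 0.000112) and −1.68 for miR-483-3p (edgeR adjusted p = 0.00128). The library with 289 CPM of liver markers held 11.7 CPM of miR-483-5p and 29.4 CPM of miR-483-3p, which is within the range of the other P1 libraries.

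The arms of miR-675, from the H19 exon, were the scarcest of the 6 and fell as well. In Pkd2 WT miR-675-3p, the main arm, stood at 4.11, 4.75 and 6.57 CPM at P1, at 2.14, 3.49 and 3.47 CPM at P3, and at 1.64, 1.68 and 2.18 CPM at P7. In Pkd2 KO it went from 5.64, 7.49 and 7.35 CPM at P1 to 1.89, 1.06 and 0.918 CPM at P7, which is the lowest group of the series. The P1 and P7 libraries of a model did not overlap, and P3 lay between them with overlap on at least 1 side.
Its log2 fold change passed the test in Pkd1 KO (−1.78, SE 0.44, edgeR adjusted p = 0.015), Pkd2 WT (−1.55, SE 0.29, edgeR adjusted p = 0.000976) and Pkd2 KO (−2.43, SE 0.29, edgeR adjusted p = 4.42e-05). In Pkd1 WT it was −1.18 (SE 0.44, edgeR adjusted p = 0.067) and did not pass. The call in Pkd1 KO was lost without replicate 1 at P1 (adjusted p = 0.0682 by edgeR) and without replicate 1 at P7 (adjusted p = 0.0711 by edgeR).
The minor arm miR-675-5p fell by 2.69 on the log2 scale in Pkd2 WT (SE 0.62, edgeR adjusted p = 0.00419), from 0.525 to 0.849 CPM at P1 to 0.0370 to 0.189 CPM at P7. It fell by 1.93 in Pkd2 KO (SE 0.54, edgeR adjusted p = 0.0168). In the Pkd1 model its values were −1.92 in WT (edgeR adjusted p = 0.0516) and −0.92 in KO (edgeR adjusted p = 0.336). The Pkd2 KO call was lost without replicate 2 at P1 (adjusted p = 0.0616 by edgeR) and without replicate 3 at P7 (adjusted p = 0.0652 by edgeR).

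**Figure D2:**
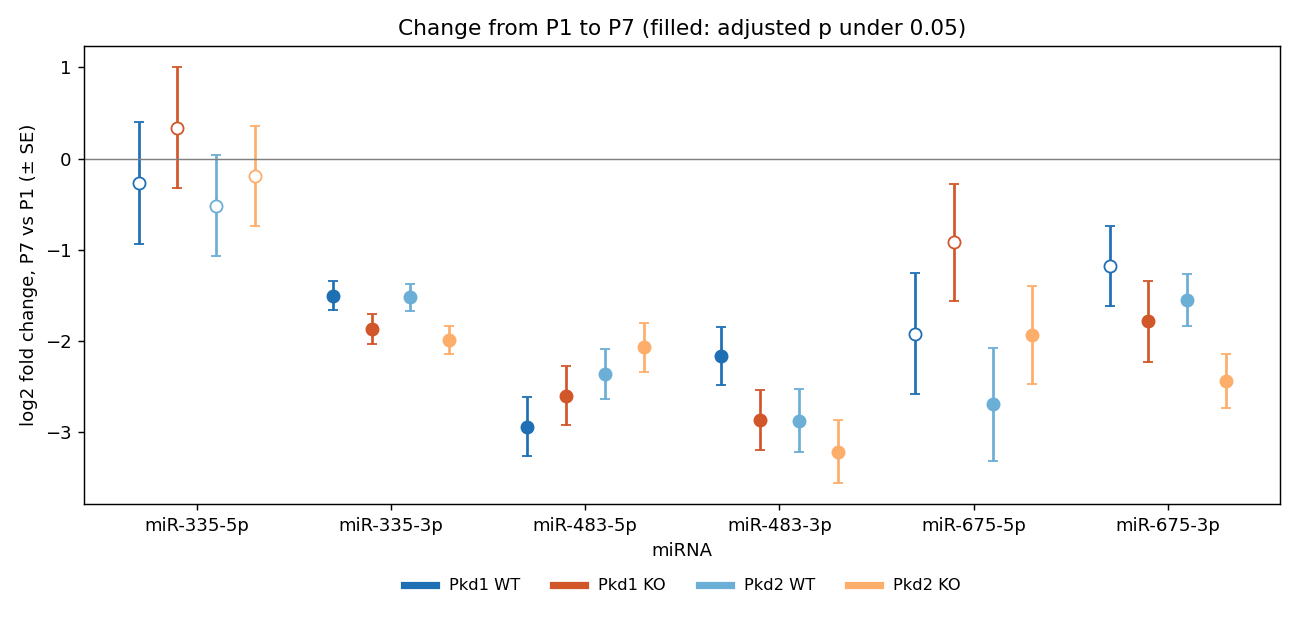
Log2 fold change from P1 to P7 of each miRNA (points, with SE bars from the edgeR fit of 18 libraries per model) in the 4 combinations of model and genotype; filled points have an adjusted p under 0.05. Points of 5 miRNAs lie between −0.92 and −3.21, and those of miR-335-5p lie around 0 with wide bars.

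Scaling mattered for the size of the falls of miR-335-3p and of both arms of miR-483 and miR-675, and not for their direction. With library totals in place of TMM factors the median log2 fold change of all miRNAs from P1 to P7 was itself −0.68 in Pkd1 WT, −1.16 in Pkd1 KO, −0.78 in Pkd2 WT and −0.97 in Pkd2 KO, and the members then had 4, 5, 6 and 6 calls, all lower. Of all miRNAs, 132 and 189 of 706 in Pkd1 WT and KO and 216 and 263 of 746 in Pkd2 WT and KO were then called lower. Only 4, 3, 6 and 3 were called higher, in the same order. Several markers of kidney epithelium moved the other way with age: by the edgeR test with TMM factors 5 of 8 rose in Pkd1 WT, 1 of 8 in Pkd1 KO, 7 of 8 in Pkd2 WT and 5 of 8 in Pkd2 KO, and none fell. Of all miRNAs tested, 10.3%, 10.1%, 11.4% and 11.8% rose in the same order, and the 1 of 8 in Pkd1 KO was near that share. The summed level of the kidney epithelium markers was 7736 to 14238 CPM over the P1 libraries and 12308 to 33178 CPM over the P7 libraries, and its part in the falls was not tested. In that sum miR-192-5p weighs most, with a median of 8913 CPM over the 36 libraries against medians of 126 to 1924 CPM for the other markers. Of 3 mesenchyme markers, none changed in Pkd1 WT by edgeR's adjusted p, 1 rose in Pkd1 KO, and 1 fell in each Pkd2 genotype. Of 4 blood markers 1 rose in Pkd1 WT, 1 in Pkd1 KO and 2 in Pkd2 KO, and of the endocrine and neural markers 1 of 4 tested rose in Pkd2 KO, with no other call in either list.
Other markers were called lower at P7, in each case with a single P1 library far above the others. All 6 striated muscle markers tested were called in Pkd1 WT (median log2 fold change −3.98), where the P1 sums were 1786, 59.3 and 20.1 CPM and the P7 sums 38.0 to 60.1 CPM. Apart from the library at 1786 CPM, no P1 sum was above the P7 range. The markers were not tested again without that library. Both liver markers were called lower in Pkd2 WT (median log2 fold change −5.96), where the P1 sums were 11.3, 9.50 and 289 CPM and the P7 sums 0.999 to 2.96 CPM. No muscle or liver marker was called in the other combinations. Their part in the falls was not tested.
Without Pkd1 WT replicate 1 at P1, 3 members were still called in Pkd1 WT, with miR-335-3p at −1.49 (SE 0.18), and miR-675-5p, miR-675-3p and miR-335-5p, which did not pass, were at −1.77, −1.25 and −0.30. Without Pkd2 WT replicate 3 at P1, 5 members were still called in Pkd2 WT, at −1.56 for miR-335-3p, −2.27 for miR-483-5p, −2.80 for miR-483-3p, −2.50 for miR-675-5p and −1.34 for miR-675-3p.

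With TMM factors the other arm of the Mest hairpin, miR-335-5p, did not follow its partner. Its log2 fold change from P1 to P7 was −0.27 (SE 0.67) in Pkd1 WT, 0.34 (SE 0.67) in Pkd1 KO, −0.51 (SE 0.55) in Pkd2 WT and −0.19 (SE 0.55) in Pkd2 KO, with edgeR adjusted p-values of 0.541 to 0.839. These standard errors were more than 3 times those of miR-335-3p, although both arms had similar read numbers. The result depended on scaling. With library totals the log2 fold change of miR-335-5p was −0.87 in Pkd1 KO (edgeR adjusted p = 0.0974). It was −1.33 in Pkd2 WT (edgeR adjusted p = 0.00372) and −1.47 in Pkd2 KO (edgeR adjusted p = 0.00253).
At P3 in Pkd1 WT its levels were 1822, 4918 and 798 CPM, and in Pkd1 KO they were 804, 4858 and 928 CPM. At P3 in Pkd2 WT they were 3781, 921 and 855 CPM. At P7 in Pkd2 KO they were 403, 2083 and 905 CPM. In each of these groups a single library stood far above the others, and the partner arm did not follow: in the same 4 libraries miR-335-3p was 1080, 910, 1164 and 472 CPM.
Each of these 4 libraries also had the highest share of miR-10a-5p and miR-10b-5p reads in its group, at 63.8%, 79.8%, 71.9% and 74.1%. Over the 36 libraries the deviation of miR-335-5p from its group mean had r = 0.952 with that of the miR-10 share, rank 12 from the top of 775 miRNAs, against r = 0.538 for miR-335-3p. For miR-483-5p r was −0.36, for miR-483-3p −0.40, for miR-675-5p 0.47 and for miR-675-3p −0.60, and the median over the 775 miRNAs was −0.11. The level and the share come from the same libraries and the same read totals, so these r are a description.

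The ratio of the arms of a hairpin within a library does not depend on how libraries are scaled, and it set miR-335 apart by age. The 5p arm made up 37.9% to 48.0% of miR-335 reads in the Pkd1 WT libraries at P1 and 46.8% to 68.9% at P7. In Pkd1 KO it made up 24.4% to 30.2% at P1 and 53.1% to 67.5% at P7, in Pkd2 WT 42.2% to 45.8% and 53.2% to 70.2%, and in Pkd2 KO 42.2% to 48.4% and 51.5% to 81.5%. P1 and P7 libraries overlapped in Pkd1 WT and in none of the other 3 combinations. The share of all 243 hairpins free of overlap in these comparisons was not computed.
Averaged over the 4 combinations, log2 of 5p over 3p rose by 1.41 from P1 to P7 (exact two-sided permutation of ages within model and genotype, p = 2.5e-05, adjusted over 243 hairpins 0.000467). Over the 243 hairpins with both arms, 33.3% had an adjusted permutation p under 0.05, 57 of them rising and 24 falling. The rise of miR-335 was the largest of the 243, and its change ranked 2 by absolute size. It was 1.61 in the Pkd1 model alone (exact permutation p = 0.01) and 1.21 in the Pkd2 model alone (exact permutation p = 0.005). Without the library high in muscle markers it was 1.41 (permutation p = 8.75e-05), and without the one high in liver markers 1.42 (permutation p = 5e-05).
The arm ratio too moved with the miR-10 share: over the 36 deviations from group means Pearson's r was 0.936 and Spearman's rho 0.941 (permutation p = 1e-05 for each, the smallest that 100000 resamples can give), and r was 0.912 without the 2 libraries farthest from the median share. That r ranked 8 from the top of 243 hairpins, whose median r was 0.204 and whose median absolute r was 0.483, so many hairpins moved with the share. With the within-group slope on the share removed, an alternative added after the data were seen, the rise of the arm ratio from P1 to P7 was 0.877 (exact permutation p = 1.25e-05, the smallest the design allows). With the share as a covariate in the edgeR fit, miR-335-5p fell from P1 to P7 by 0.77 in Pkd1 WT (adjusted p = 0.0394), by 0.94 in Pkd2 WT (adjusted p = 0.000174) and by 1.26 in Pkd2 KO (adjusted p = 3.22e-05), and was −0.72 in Pkd1 KO (adjusted p = 0.0814). Whether the share and the arm ratio have a common source in library preparation was not tested.

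**Figure D3:**
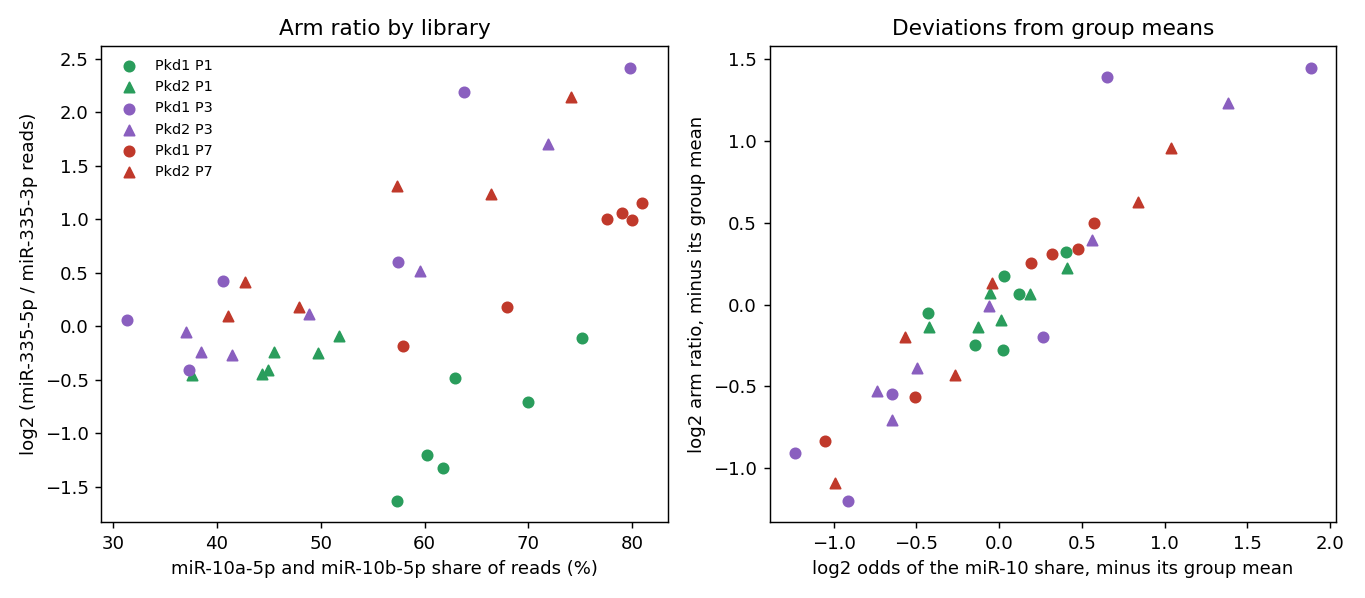
Left, log2 of miR-335-5p over miR-335-3p reads in each of the 36 libraries against the percent of reads from miR-10a-5p and miR-10b-5p; right, the same as deviations from the mean of each group of 3, with the share as log2 odds. Colour marks age and shape the model; on the left P7 points lie above P1 points of the same model at similar shares, and on the right the points follow a rising line (r = 0.936).

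For miR-483 and miR-675 no change of the arm ratio with age was called over the 4 combinations: log2 of 5p over 3p differed by 0.28 (exact permutation p = 0.141) and by −0.04 (exact permutation p = 0.905). For miR-483 the combinations did not all move one way. In Pkd2 the 5p share rose from 27.0% to 28.6% in the WT libraries at P1 to 34.3% to 38.5% at P7, and from 19.04% to 31.0% to 35.4% to 42.2% in KO. In Pkd1 WT it went from 26.9% to 33.8% at P1 to 15.7% to 22.2% at P7, while in Pkd1 KO the log2 ratio differed by 0.302 with overlap, the share being 17.7% to 22.3% at P1 and at most 26.1% at P7. In the Pkd1 model alone the change was −0.237 (exact permutation p = 0.32). The arm ratio of miR-675 had r = 0.783 with the miR-10 share (Spearman's rho 0.725, permutation p = 8e-05 and 0.00027, r without the 2 farthest libraries 0.718), and that of miR-483 had r = 0.17 (rho 0.0772, permutation p = 0.466 and 0.719). Among 243 hairpins these r ranked 37 and 128 from the top, and the median absolute r was 0.483.

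Deletion of Pkd1 or Pkd2 in the collecting duct was compared with WT at each age. Across the 6 comparisons a single value among the 36 passed the test: miR-335-3p was lower in Pkd2 KO at P7. The levels were 604, 713 and 484 CPM in WT and 379, 472 and 364 CPM in KO, so that the groups did not overlap, by a narrow gap. The log2 fold change was −0.50 (SE 0.15, edgeR adjusted p = 0.035, 1.41-fold lower). In that comparison 3.62% of all miRNAs were called lower, and 10.9% had all KO libraries below WT. The call did not survive 9 of 13 alternatives, among them leaving out any of 5 of the 6 P7 libraries of Pkd2, with an edgeR adjusted p of up to 0.445, while the log2 fold change stayed between −0.66 and −0.43.
Markers of several cell types differed between the same libraries. The kidney epithelium sum, in which miR-192-5p weighs most, was 12308 to 18493 CPM in KO against 20826 to 32240 CPM in WT. By edgeR's adjusted p 3 of 8 markers were lower and 2 higher, so the list did not move one way. The blood sum was 3511 to 5655 CPM in KO against 2243 to 2722 CPM in WT, with 1 of 4 higher, and the striated muscle sum was 28.0 to 114 CPM against 19.6 to 20.9 CPM, with none called. The sums of the mesenchyme, liver and endocrine and neural markers overlapped, with none called. The part of these markers in the lower miR-335-3p was not tested.
In Pkd1 the same arm was lower in KO at P3 without overlap, at 772, 910 and 693 CPM against 1206, 1080 and 1057 CPM in WT, a log2 difference (KO minus WT) of −0.48 with SE 0.16 and an edgeR adjusted p of 0.407. It was −0.23 (SE 0.16) at P7, with overlap, and 0.14 (SE 0.16) at P1.

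No member passed the test in Pkd1 at P1, P3 or P7 or in Pkd2 at P1 or P3, with edgeR or with DESeq2, and miR-335-3p in Pkd1 at P3 was the only member with an unadjusted edgeR p under 0.05. By edgeR's adjusted p the background was thin too: 0% of miRNAs were called in Pkd1 at P1 (59 of 706 at an unadjusted p under 0.05, 9 by DESeq2), 0% at P3 (64 unadjusted, 9 by DESeq2) and 0.425% at P7 (72 unadjusted, 17 by DESeq2). In Pkd2 it was 0% at P1 (41 of 746 unadjusted, 0 by DESeq2) and 0% at P3 (11 unadjusted, 0 by DESeq2).
Without passing the test, 2 members had KO libraries wholly below WT in Pkd1 at P1, where 8.22% of all miRNAs were wholly below. These were miR-335-5p, at 547, 589 and 621 CPM in KO and 1070, 1433 and 811 CPM in WT (log2 fold change −0.85, SE 0.67), and miR-483-5p, at 12.1, 11.4 and 11.0 CPM in KO and 25.3, 13.3 and 13.5 CPM in WT (−0.54, SE 0.29). Without WT replicate 1, the library high in muscle markers, these were −0.88 (SE 0.75) and −0.18 (SE 0.28), and miR-483-3p went from 0.15 (SE 0.30) to 0.63 (SE 0.26, edgeR adjusted p = 0.344). The other arms of these hairpins overlapped between the groups. The 5p share was lower in these KO libraries for all 3 hairpins without overlap, at 24.4% to 30.2% against 37.9% to 48.0% for miR-335, 17.7% to 22.3% against 26.9% to 33.8% for miR-483 and 5.67% to 7.87% against 10.8% to 17.6% for miR-675 (exact permutation p = 0.1 for each, the smallest that 3 against 3 allows). The share of all 243 hairpins free of overlap in this comparison was not computed, so whether these 3 stand out is not known. The miR-10 share of the same libraries did not overlap either, at 57.3% to 61.8% in KO and 63.0% to 75.1% in WT, and neither did the sums of the blood markers, at 2550 to 3140 CPM in KO and 3549 to 4981 CPM in WT, and of the kidney epithelium markers, at 12363 to 14238 CPM in KO and 9290 to 12331 CPM in WT. No marker was called in that comparison. The part of these in these differences was not tested.
A single member was free of overlap in each of 3 further comparisons: miR-335-3p in Pkd1 at P3, where 5.24% of all miRNAs were wholly lower in KO, miR-483-3p in Pkd1 at P7 (7.93% wholly lower) and miR-483-3p in Pkd2 at P3 (2.55% wholly higher). For miR-483-3p the levels were 5.75, 6.82 and 5.22 CPM in KO against 7.69, 11.6 and 8.16 CPM in WT in Pkd1 at P7 (log2 fold change −0.56, SE 0.32). In Pkd2 at P3 they were 15.1, 21.6 and 18.1 CPM in KO against 11.9, 13.7 and 15.1 CPM in WT (0.40, SE 0.32). No member was free of overlap in Pkd2 at P1, where 13.5% of all miRNAs were, in either direction. Without WT replicate 3, the library high in liver markers, miR-675-3p in that comparison went from 0.46 (SE 0.27) to 0.67 (SE 0.29, edgeR adjusted p = 0.727).

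**Figure D4:**
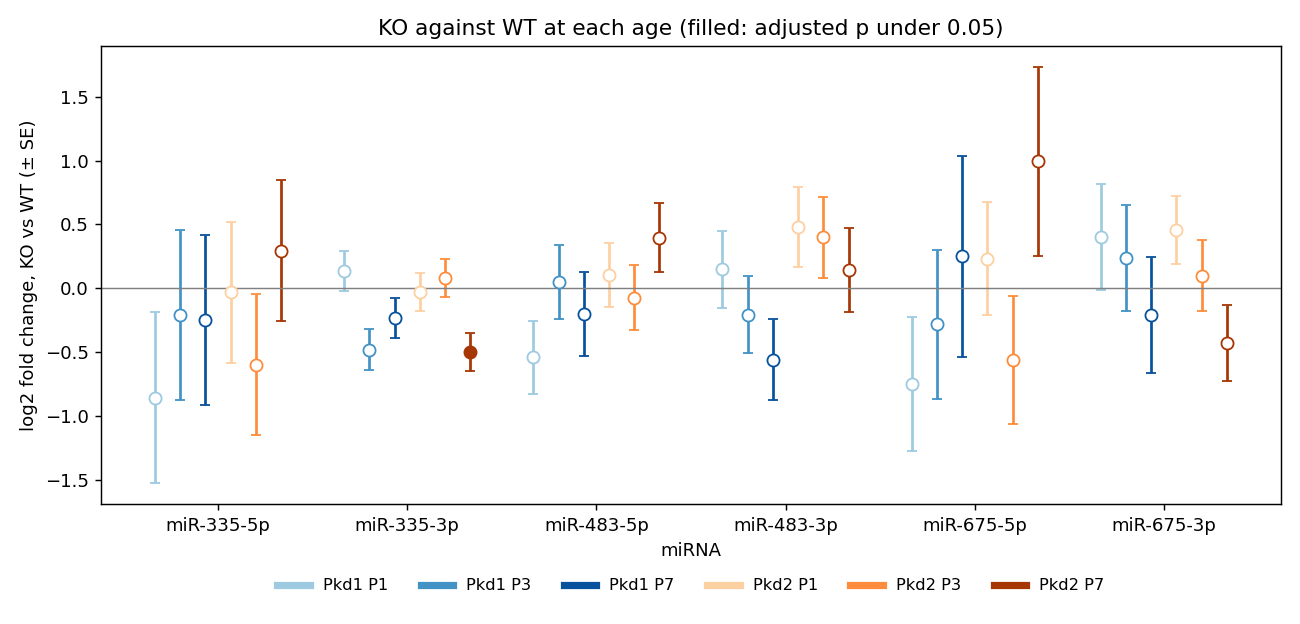
Log2 fold change of KO against WT for each miRNA (points, with SE bars from the edgeR fit of 18 libraries per model) at P1, P3 and P7 in both models; filled points have an adjusted p under 0.05. The values scatter on both sides of 0 between −0.85 and 0.99, and miR-335-3p in Pkd2 at P7 is the single filled point.

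Whether the KO difference itself changed was tested as an interaction. None of the 6 members passed for the change of the KO effect from P1 to P7 in Pkd1 (0.142% of all miRNAs called), for the same contrast in Pkd2 (0.536%) or for the KO effect at P7 in Pkd2 minus that in Pkd1 (0.387%), with edgeR or DESeq2. At an unadjusted edgeR p under 0.05 stood 0, 2 and 0 members. The 2 were in Pkd2, miR-335-3p at −0.47 (SE 0.21, edgeR adjusted p = 0.275) and miR-675-3p at −0.88 (SE 0.40, edgeR adjusted p = 0.281). The KO effect of miR-675-3p in Pkd2 was 0.46 (SE 0.27) at P1 and −0.43 (SE 0.30) at P7. Without the library high in liver markers the interaction of miR-675-3p was −1.09 (SE 0.41, edgeR adjusted p = 0.358). In Pkd1, without the library high in muscle markers, that of miR-483-3p went from −0.71 (SE 0.44) to −1.19 (SE 0.36, edgeR adjusted p = 0.186) and that of miR-483-5p from 0.34 (SE 0.44) to −0.019 (SE 0.39). In the arm ratios, 0% of 243 hairpins were called between KO and WT (18 at an unadjusted permutation p under 0.05), and log2 of 5p over 3p differed by −0.08 for miR-335 (permutation p = 0.752), −0.10 for miR-483 (permutation p = 0.367) and −0.18 for miR-675 (permutation p = 0.576).

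Between the WT kidneys of the models, averaged over the 3 ages, miR-483-3p was lower in the Pkd2 line, with a log2 difference of −0.76 (SE 0.19, edgeR adjusted p = 0.00344, 9.81% of all miRNAs lower), and no other member passed. The gap was plain at P7, with 3.47, 3.23 and 4.81 CPM in the Pkd2 line against 7.69, 11.6 and 8.16 CPM in the Pkd1 line, and the groups overlapped at P1 and at P3. The line and anything that was handled line by line cannot be told apart. With library totals the difference was −0.13 (edgeR adjusted p = 0.762), while the median of all miRNAs moved to 0.616. Without the library high in muscle markers it was −0.59 (edgeR adjusted p = 0.0129), and without the one high in liver markers −0.78 (edgeR adjusted p = 0.00488). Of the cell type markers, 3 of 8 of kidney epithelium and 1 of 3 of mesenchyme were higher in the Pkd2 line, 2 of 7 of striated muscle and 1 of 5 endocrine and neural ones were lower, and of 4 blood markers 1 was higher and 1 lower.

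The 6 members varied together except for miR-335-5p. Over the 36 libraries log2 CPM of miR-335-3p had r = 0.884 with miR-483-5p and 0.856 with miR-483-3p, but 0.31 with miR-335-5p from its own hairpin. The arms of miR-483 had r = 0.929 with each other and those of miR-675 had r = 0.619. The miRNAs most like the main arms by Pearson's r were miR-6539 (0.888), miR-92a-3p (0.844) and miR-1298-5p (0.78) for miR-483-3p, and miR-92a-3p (0.853), miR-130b-5p (0.8) and miR-6539 (0.791) for miR-675-3p. For miR-335-3p, whose list was added after its values were seen, they were miR-92a-3p (0.881), miR-130b-3p (0.868) and miR-6539 (0.863). For miR-335-5p they were different miRNAs, miR-17-3p (0.889), miR-98-3p (0.867) and miR-20a-3p (0.834), of which miR-17-3p and miR-20a-3p are minor arms of the same cluster. The points share age, group and library, and miR-92a-3p can come from several hairpins.

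The miRNAs of other imprinted loci did not all share this course. Of 4 from the Gnas locus (miR-296 and miR-298, both arms), 1 fell from P1 to P7 in Pkd1 WT, 1 in Pkd1 KO, 2 in Pkd2 WT and 2 in Pkd2 KO, and the lowest value was −1.15 for miR-296-3p in Pkd1 KO (edgeR adjusted p = 0.0241). Of 13 from the Dlk1-Dio3 cluster, 4 fell in Pkd1 WT and 12 in Pkd2 WT, with 0 in either KO by edgeR's adjusted p, and their median log2 fold change was −1.37, −1.53, −0.65 in Pkd1 KO and −0.24 in Pkd2 KO. The change of the KO effect from P1 to P7 was called for 0 of the 13 in Pkd1 and 0 in Pkd2. These counts therefore do not show a difference between genotypes. Values of these other loci include the libraries high in muscle or liver markers. In Pkd2 KO at P7 5 of these 13 were higher than in WT, where 8.98% of all miRNAs were higher, led by miR-541-5p at 1.70 (SE 0.46, edgeR adjusted p = 0.025). In the same comparison the 6 members of the Mest, Igf2 and H19 loci had 0 higher and 1 lower.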

How the data were processed

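The authors trimmed adaptors, dropped reads of 17 bases or fewer and ran miRDeep2 on the rest with miRBase release 21. The deposited values are raw read counts per mature miRNA and hairpin in 36 libraries. The submitters' processing notes also name mm10, CASAVA 1.8.2 and HTSeq, whose part here is not given in the sources used here. Each of the 6 members has a single row. The miRNAs and lists were chosen with earlier results of these data known.

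Counts were tested with edgeR 4.0.16 (R 4.3.3; TMM factors, quasi-likelihood F-test, at least 10 counts in at least 3 libraries, 18 libraries per model or 36 across models, Benjamini-Hochberg over all miRNAs, threshold 0.05). Each SE of a log2 fold change was derived from the test, as the absolute log2 fold change divided by the square root of F. Library totals of 12569939 to 32663566 reads set a floor of 3 reads at 0.0593 to 0.471 CPM; such floors cover counting error only. Arm ratios used log2 of 5p over 3p counts plus 0.5, with exact permutation (160000 relabelings) for age and 100000 resamples for genotype. The scripts were tested on simulated data. Alternatives were DESeq2 1.42.0, other scalings, no filter, the miR-10 share as a covariate, a replicate block, the compared libraries alone and each replicate left out. Named miRNAs were all members, the 3 others most alike in level to the main arm of each hairpin, and from the other imprinted lists those called with the largest changes. Sequences and their places came from RefSeq GRCm38.p6, where 1623 mature names of the table matched, and gene structure from GENCODE release M21. Library pairs of a group differed by at least 33.3 in chi-square per degree of freedom, so each was counted once.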

Additional observations from a re-analysis of the deposited data

Results flagged for a closer look

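In the WT libraries the arm ratio of miR-483 differed between P1 and P7 in opposite directions in the 2 models. Every P7 library lay below every P1 library in the Pkd1 line (log2 of 5p over 3p −0.78) and above every P1 library in the Pkd2 line (0.53). The exact permutation p was 0.1 in each line, the smallest that 3 against 3 allows. The flag was set by such opposite moves or by a p under 0.05 for the difference, so neither is separate support. How many of the 243 hairpins show such moves was not computed. The difference, Pkd2 line minus Pkd1 line, was 1.31 (exact two-sided permutation of the line labels within age, p = 0.045, adjusted over 243 hairpins 0.999, 0 hairpins called). Without the Pkd1 WT library high in muscle markers and the Pkd2 WT library high in liver markers at P1 the difference was 1.42, with −0.86 in the Pkd1 line and 0.55 in the Pkd2 line (values with no test). In KO it was 0.774 (exact permutation p = 0.215, adjusted 0.901).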

How the results depend on the processing

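Each log2 fold change of a member was recomputed under 7 other settings and without each replicate of the groups compared, where the member passed the filter. With the compared libraries alone miR-675-5p failed it in Pkd1 KO against WT at P3 and P7 and in Pkd2 at P7. It also failed there in Pkd1 WT and KO from P1 to P7 and in the difference of the KO effect at P7 between models. These values were not recomputed under that setting. The falls of miR-335-3p, miR-483-5p and miR-483-3p from P1 to P7 kept their call under all 13 alternatives in both models and genotypes, and so did those of miR-675-3p and miR-675-5p in Pkd2 WT and of miR-675-3p in Pkd2 KO. Depth limits miR-675-5p, which was at or under 3 reads in 10 of 36 libraries. Where values changed below, the cause was not tested.

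The single KO call, in Pkd2 at P7, went from 1 member to 0 with library totals, with no filter on low counts, with the replicate block and with the compared libraries alone, and ran from 0 to 1 when each replicate was left out (1 only without KO replicate 2). Over all miRNAs that comparison held 94 calls, 157 with DESeq2 and 7 with library totals. Replicate numbers are shared between groups but did not pair the libraries: of 18 pairs of same-numbered libraries 7 had a correlation of deviations over 0.1 (−0.48 to 0.507), and 5 of 18 correlated best with their own number. With the replicate block miR-335-3p in Pkd2 KO at P7 was −0.49 (edgeR adjusted p = 0.0923), miR-675-5p in Pkd2 KO from P1 to P7 was −1.95 (edgeR adjusted p = 0.0673), and miR-335-5p between the WT lines was 0.063. No other call of a member was lost under the block.

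In Pkd1 WT from P1 to P7 the members called went from 3 to 6 with the miR-10 share as covariate and to 5 with DESeq2. Calls among all 706 miRNAs rose as well, from 152 to 250 and to 181. Between the WT lines the members called went from 1 to 2 with library totals and 3 with the miR-10 covariate. Calls among all 775 miRNAs went from 195 to 313 and to 242. With library totals the sign turned for miR-335-5p in Pkd1 KO from P1 to P7 (−0.87), in Pkd2 KO against WT at P1 (0.18), in the Pkd2 interaction of KO with age (−0.14) and between the WT lines (0.63). It also turned for miR-335-3p in Pkd2 at P1 (0.19), for miR-483-5p in the Pkd1 interaction (−0.043), and between the WT lines for miR-483-5p (0.38), miR-675-5p (0.46) and miR-675-3p (0.51). With no filter miR-335-5p between the WT lines was 0.023. With the miR-10 covariate the sign turned for miR-335-5p in Pkd1 KO from P1 to P7 (−0.72), in Pkd2 KO against WT at P1 (0.090) and at P7 (−0.23), in the Pkd2 interaction (−0.32), in the difference of the KO effect between models (−0.035) and between the WT lines (0.96), and for miR-675-5p between the WT lines (0.37).

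Leaving out each replicate in turn, the sign of these values, none of which had passed the test, was not stable. In Pkd1 KO against WT the range was −0.093 to 0.63 for miR-483-3p at P1, −1.48 to 0.72 for miR-335-5p, −0.23 to 0.27 for miR-483-5p, −0.61 to 0.16 for miR-675-5p and −0.088 to 0.49 for miR-675-3p at P3, and −0.68 to 0.039 for miR-335-5p, −0.29 to 0.95 for miR-675-5p and −0.42 to 0.022 for miR-675-3p at P7. In Pkd2 KO against WT it was −0.10 to 0.026 for miR-335-5p, −0.071 to 0.017 for miR-335-3p and −0.055 to 0.43 for miR-675-5p at P1, −0.95 to 0.47 for miR-335-5p, −0.98 to 0.014 for miR-675-5p, −0.074 to 0.21 for miR-675-3p and −0.18 to 0.011 for miR-483-5p at P3, and −0.11 to 0.41 for miR-483-3p and −0.55 to 0.71 for miR-335-5p at P7. From P1 to P7 miR-335-5p ran from −0.55 to 0.071 in Pkd1 WT and from −1.02 to 0.21 in Pkd2 KO. The interaction with age ran from −0.019 to 0.51 for miR-483-5p in Pkd1, and in Pkd2 from −0.090 to 0.50 for miR-483-5p and from −0.54 to 0.72 for miR-335-5p. The difference of the KO effect between models ran from −0.63 to 0.019 for miR-675-3p, from −0.0053 to 1.16 for miR-675-5p and from −0.23 to 0.96 for miR-335-5p, and the difference between the WT lines from −0.36 to 0.30 for miR-335-5p and from −0.31 to 0.12 for miR-675-5p.

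The rise of the miR-335 arm ratio from P1 to P7 kept its direction and its permutation p under 0.05 in every setting run. For miR-483 the change from P1 to P7 was −0.237 in the Pkd1 model alone and 0.803 in the Pkd2 model alone (exact permutation p = 0.32 and 0.005). For miR-675 it was 0.168 with a pseudocount of 1, 0.0773 in the Pkd1 model alone, −0.584 with the miR-10 slope removed (exact permutation p = 0.0249), and −0.163 to 0.136 without each replicate. KO minus WT of the miR-335 ratio was 0.072 in the Pkd2 model alone and −0.199 to 0.0383 without each replicate, and that of the miR-675 ratio was 0.181 in the Pkd2 model alone.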
